A study of Rattus norvegicus with 12 samples.

Results

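Oligodendrocyte lineage and myelin genes were described in the periaqueductal grey, a midbrain region of descending pain control, of rats whose sires had received morphine or saline. The 33 listed genes were to be kept where their mean level over all libraries was at least 0.5 TPM (the deposited length-corrected abundance, relative to the library's total), and all 33 passed, among 41596 genes in all and 24540 genes that reached that mean. The lowest member mean was 10.5 TPM and none lay near the minimum. Both groups were male Sprague Dawley rats: 6 morphine-sired animals (morphine-sired 1 to 6) and 6 saline-sired animals (saline-sired 1 to 6). No other treatment of the offspring, and no age, is given in the labels. PolyA RNA of dissected tissue was sequenced with 1 library per animal. Since neither litter nor sire is named in the labels, the 12 animals were treated as independent.

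Oligodendrocytes form the myelin of the central nervous system. They arise from precursor cells that carry the growth factor receptor Pdgfra and the proteoglycan Cspg4, pass through a short-lived differentiating stage, and then make the proteins and galactolipids of myelin under transcription factors such as Sox10 and Myrf. The periaqueductal grey is crossed and bordered by myelinated fibres, so a dissected piece holds mature oligodendrocytes beside neurons and astrocytes. In bulk tissue, fewer cells of a type and less RNA per cell cannot be told apart.

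No member differed between morphine-sired and saline-sired animals past the test threshold. Of the 33 members, 0 were called by limma on log2(TPM + 1) with Benjamini-Hochberg adjusted p under 0.05 over the 24540 genes, where 0.0% of all genes were called. At an unadjusted p under 0.05, 0 members passed, against 3.22% of all genes, and limma-voom on estimated reads also called 0.0% of genes (3.04% before adjustment). The member with the smallest p was Aspa, and the adjusted p of every member was 1.00. For 0 members did the groups not overlap, against 0.0896% of all genes. The 95% interval of the difference lay within 1.5-fold either way for 25 members and within 2-fold for 31, while 67.5% and 89.5% of all genes lay within these bounds. For most members a difference beyond 1.5-fold thus lay outside the interval, and smaller ones could not be told from 0.

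The libraries differed from each other more than the groups did. Morphine-sired 2 held the highest level of 23 members and lay above the 12-library mean for 32 of 33, and morphine-sired 3 held the lowest level of 16. Together the members took 1.24%, 2.28%, 1.14%, 1.48%, 1.40% and 1.58% of the TPM of morphine-sired 1 to 6, and 1.36%, 1.34%, 1.67%, 1.82%, 1.69% and 1.70% of that of saline-sired 1 to 6. The morphine-sired libraries therefore held both the highest and the lowest share.

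Morphine-sired 2 also stood apart in some markers of other cell types. The summed level of the 5 choroid plexus markers was 1794 TPM there, within 22.1 to 1794 in morphine-sired and 11.5 to 444 in saline-sired animals, with the saline-sired maximum in saline-sired 2. Ttr alone held 1756 of the 1794 TPM in morphine-sired 2 and 413 of the 444 TPM in saline-sired 2. The sum of 4 neuronal markers was likewise highest in morphine-sired 2 (2905 to 4789 TPM in morphine-sired, 2886 to 4166 in saline-sired). Nefl alone held 2422 of those 4789 TPM, against 634 to 1819 TPM of Nefl in saline-sired libraries. Morphine-sired 2 was also the highest for 2 blood markers (501 to 1555 in morphine-sired, 432 to 705 in saline-sired). It was the lowest for 5 astrocyte markers (701 to 1206 in morphine-sired, 849 to 1093 in saline-sired). Summed microglial markers were 207 to 256 TPM in morphine-sired and 179 to 229 in saline-sired animals, with 3 of 5 at an unadjusted p under 0.05. So were 3 of the 5 choroid plexus markers, 1 of the 4 neuronal markers and 1 of 3 pericyte markers, against 3.22% of all genes. Astrocyte, endothelial, meningeal fibroblast, Schwann cell, serotonergic, cholinergic and blood markers had 0 at that level, and 0 markers passed after adjustment by limma. The lists were chosen with earlier results of these data known, so these counts are no measure of an excess. Markers of cholinergic neurons were lowest in morphine-sired 1, saline-sired 1 and saline-sired 6, and those of serotonergic neurons were lowest in these and in morphine-sired 6. The part of these differences in the member levels was not tested. Depth was 4.39 to 6.03 gigabases per library.

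**Figure D1:**
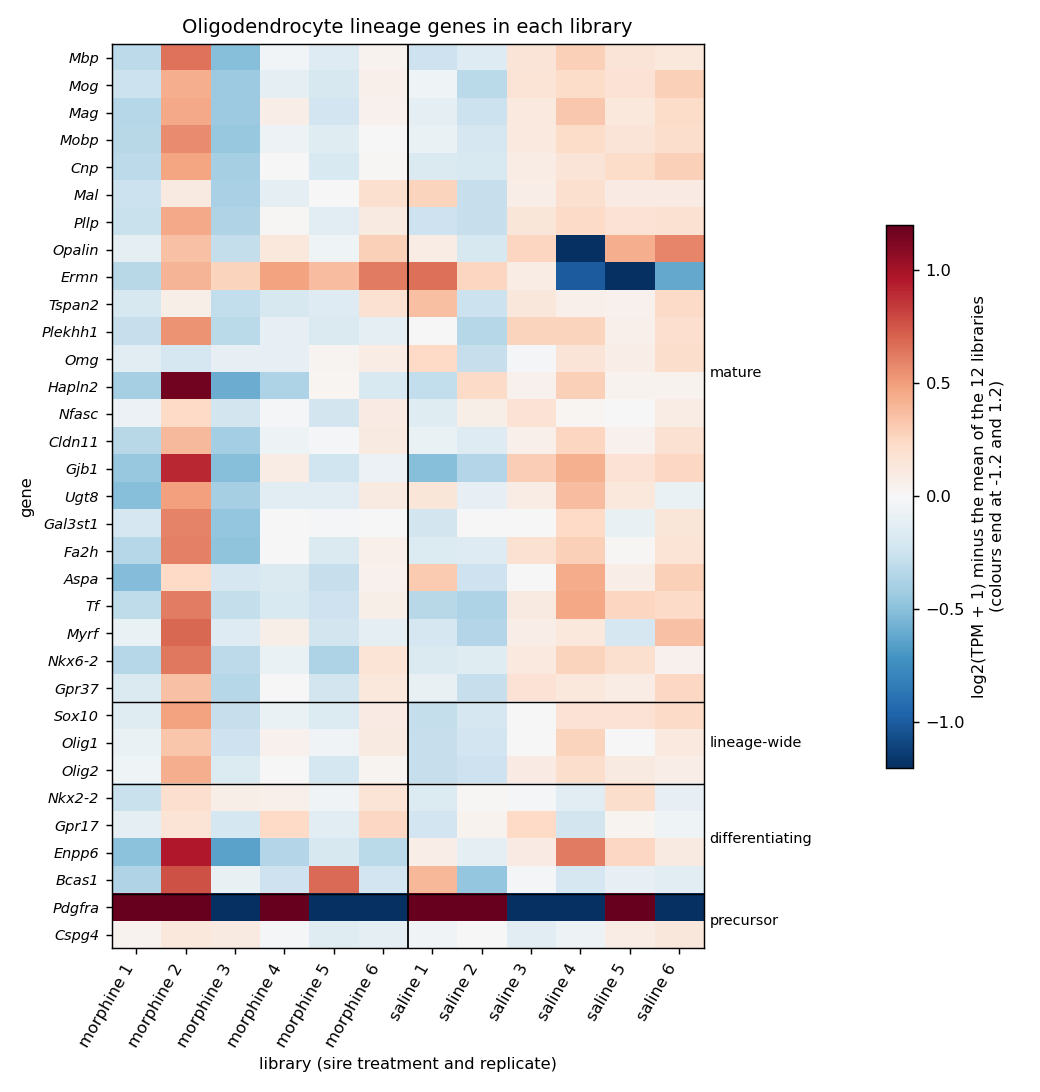
Each row is a member and each column a library, morphine-sired left of saline-sired, and colour is log2(TPM + 1) minus the mean of the 12 libraries (strongest colours mark all larger deviations). The column of morphine-sired 2 is above the mean for 32 of 33 members, the exception being Omg. Pdgfra, Ermn and Opalin are among the rows that break the pattern of the others.

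Mbp, the basic protein that holds the inner faces of compact myelin together, was the most abundant member with a mean of 8158 TPM. Its level was 6405, 12542.5, 5603, 7826, 7152 and 8209 TPM in morphine-sired 1 to 6, and 6699, 7193, 8880, 9760, 8911 and 8721 TPM in saline-sired 1 to 6. Morphine-sired 2 lay above and morphine-sired 1 and 3 below every saline-sired library. The group means were 7956 ± 2437 TPM in morphine-sired and 8361 ± 1165 TPM in saline-sired animals (SD, n = 6 each), a log2 difference of -0.11 with a standard error (SE) of 0.17 and a 95% interval of limma from -0.47 to 0.25. All log2 differences are the mean of log2(TPM + 1) in morphine-sired minus that in saline-sired animals. Mbp (chr18:79326738-79437310, plus strand, Rnor_6.0) had 5 annotated transcripts and 1 assembled from these libraries, which held 22.4% of its TPM. All gene coordinates other than those of the printed sequences are Rnor_6.0, as in the files.

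Among the other structural proteins of myelin, Mobp, a small cytoplasmic protein of central myelin, had a lowest, median and highest level of 844, 1081 and 1716 TPM in morphine-sired libraries and 1009, 1272 and 1346 TPM in saline-sired libraries. Cnp, the phosphodiesterase of non-compact myelin, had 647, 798 and 1184 TPM in morphine-sired and 749, 928 and 1035 TPM in saline-sired libraries. Mag, the adhesion molecule of the myelin layer that faces the axon, had 380, 486 and 707 TPM in morphine-sired and 429, 559 and 644 TPM in saline-sired libraries. In each of these 3 genes the median was lower in morphine-sired animals while morphine-sired 2 was the highest of all 12, so the groups overlapped. Their log2 differences were -0.14 for Mobp, -0.13 for Cnp and -0.14 for Mag (SE 0.15, 0.14 and 0.15).

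The upstream sequences of Mag and Cnp are shown because they hold a short word recognised by Myrf, the factor that drives myelin genes and is itself a member. Cldn11, the tight junction protein of the myelin sheath, is shown as a further member that varied with Mbp, and Opalin, an oligodendrocyte membrane protein, as one that did not. Each is the 250 bases before the gene's start in the RefSeq table of build GRCr8, 5′ to 3′ on the gene's strand, with the word in capitals. The positions are Mag chr1:95291045-95291294 (minus), Cnp chr10:86011254-86011503 (plus), Cldn11 chr2:114149540-114149789 (minus) and Opalin chr1:249858191-249858440 (minus).
Mag: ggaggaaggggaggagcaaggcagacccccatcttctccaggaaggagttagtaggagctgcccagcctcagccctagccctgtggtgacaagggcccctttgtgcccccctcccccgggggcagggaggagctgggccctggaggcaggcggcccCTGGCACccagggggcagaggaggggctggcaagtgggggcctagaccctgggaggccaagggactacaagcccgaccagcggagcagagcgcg
Cnp: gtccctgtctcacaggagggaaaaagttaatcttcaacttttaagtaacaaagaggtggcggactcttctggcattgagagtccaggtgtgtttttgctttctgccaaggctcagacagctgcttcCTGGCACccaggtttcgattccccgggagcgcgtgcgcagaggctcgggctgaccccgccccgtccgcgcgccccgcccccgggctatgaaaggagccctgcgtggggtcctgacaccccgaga
Cldn11: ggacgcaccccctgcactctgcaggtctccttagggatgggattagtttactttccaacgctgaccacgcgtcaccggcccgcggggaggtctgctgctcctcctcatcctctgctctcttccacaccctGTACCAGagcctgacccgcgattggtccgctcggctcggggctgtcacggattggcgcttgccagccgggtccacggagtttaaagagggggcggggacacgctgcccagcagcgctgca
Opalin: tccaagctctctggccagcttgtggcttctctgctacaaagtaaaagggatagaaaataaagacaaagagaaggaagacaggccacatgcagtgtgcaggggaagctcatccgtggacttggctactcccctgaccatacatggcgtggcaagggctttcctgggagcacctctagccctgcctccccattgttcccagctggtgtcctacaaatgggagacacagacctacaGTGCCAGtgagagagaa

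The words searched were CTGGCAC and CTGGTAC on both strands, so Cldn11 and Opalin carry them on the opposite strand (as GTACCAG and GTGCCAG). The word began 94 bases before the gene's start in Mag, 124 in Cnp, 120 in Cldn11 and 17 in Opalin. Of the 27 members in the RefSeq table, 8 held a word in these 250 bases (29.6%), against 5.48% of the 33469 promoters of the table. Members were counted by gene, with a word in any entry of the gene, and the table by single promoter entry. These shares therefore differ in unit. Besides the 4 shown they were Hapln2, Mal, Nfasc and Olig2, and 7 of the 8 were mature members among 21 in the table. Mbp and Mobp held no such letters in this window. Ermn, Olig1, Sox10, Myrf, Bcas1 and Mog were not in the table. A match is a description of letters only.

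Lower and higher means are counted here and below on mean log2(TPM + 1), which can differ in direction from mean TPM. Taken by role, 12 of the 14 myelin protein members had a lower mean in morphine-sired animals, with a median log2 difference of -0.13, where 50.8% of all genes were lower and their median was -0.00. The members of this group with the smallest p were Ermn and Tspan2. Tspan2, a tetraspanin of the oligodendrocyte membrane, had a lowest, median and highest level of 74.6, 81.2 and 104 TPM in morphine-sired and 76.6, 98.1 and 118 TPM in saline-sired libraries. Its groups overlapped over most of their range, with a log2 difference of -0.19 (SE 0.10, 95% interval -0.42 to 0.03). Mog, the glycoprotein of the outermost myelin surface, and the raft proteins Mal and Pllp had differences of -0.16, -0.15 and -0.06. Plekhh1, a pleckstrin domain protein of myelinating cells, had -0.15 and Omg, a surface glycoprotein shared with neurons, had -0.14. Hapln2, a link protein of the matrix at nodes of Ranvier, had -0.12 and Nfasc, the neurofascin gene whose glial form anchors myelin beside the node, had -0.07, and the 95% intervals of all these include 0.

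Ermn (chr3:44068057-44086087, minus strand), which encodes the actin-binding protein ermin of late oligodendrocytes, had the largest positive difference of the members, 0.61 (SE 0.30, 95% interval -0.04 to 1.26). Its level was 102, 171, 154, 180, 167 and 198 TPM in morphine-sired 1 to 6, and 204, 153, 136, 63.6, 54.8 and 83.2 TPM in saline-sired 1 to 6. Saline-sired 4, 5 and 6 lay below every other library, while saline-sired 1 was the highest of all 12, so the groups overlapped. The same libraries were not as low in reads estimated from coverage. There Ermn had 184 ± 33.4 per 1000000 reads in morphine-sired and 168 ± 31.7 in saline-sired animals (SD, n = 6 each), and limma-voom on these reads gave 0.13 (SE 0.15). The annotated transcript of 1778 bases ran from 3.09 to 170 TPM by library, and assembled transcripts of 5817 and 5705 bases took 14.6% to 91.7% of the gene's TPM. TPM divides reads by transcript length, which estimated reads do not.

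Opalin had 92.9, 128, 82.1, 109, 96.5 and 122 TPM in morphine-sired 1 to 6, and 107, 87.6, 120, 34.8, 136 and 150 TPM in saline-sired 1 to 6. The groups overlapped, and saline-sired 4 alone lay well below the rest. Its log2 difference was 0.10 (SE 0.29, 95% interval -0.53 to 0.74) and -0.18 without saline-sired 4 (SE 0.15), so 1 library set the sign. Unlike Ermn, Opalin was also low in that library in estimated reads, with 45.7 per 1000000 reads against 113 to 194 in the other saline-sired libraries.

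Both junction proteins had lower means in morphine-sired animals, with a median log2 difference of -0.10. Cldn11 had a lowest, median and highest level of 351, 452 and 610 TPM in morphine-sired and 418, 483 and 557 TPM in saline-sired libraries, a difference of -0.11 (SE 0.12, 95% interval -0.37 to 0.16). Gjb1, the connexin that couples the layers of myelin and neighbouring glia, had 46.5, 60.1 and 126 TPM in morphine-sired and 46.6, 77.5 and 90.5 TPM in saline-sired libraries. Its difference was -0.10 (SE 0.24, 95% interval -0.61 to 0.42), and morphine-sired 2 lay far above the other morphine-sired libraries.

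All 5 members for lipid synthesis, acetylaspartate breakdown and iron transport had a lower mean log2(TPM + 1) in morphine-sired animals, with a median log2 difference of -0.11. Aspa (chr10:59839416-59892960, minus strand), which frees acetate from N-acetylaspartate for lipid synthesis, had 26.5, 45.5, 33.2, 34.0, 31.4 and 39.8 TPM in morphine-sired 1 to 6, and 48.0, 32.2, 38.2, 52.5, 40.5 and 46.8 TPM in saline-sired 1 to 6. The means were 35.1 ± 6.66 TPM in morphine-sired and 43.0 ± 7.44 TPM in saline-sired animals (SD, n = 6 each), a difference of -0.29 (SE 0.14, 95% interval -0.59 to 0.01). Most morphine-sired libraries were below most saline-sired ones, but saline-sired 2 and morphine-sired 2 crossed over. Ugt8, the enzyme of galactosylceramide synthesis, had a lowest, median and highest level of 63.8, 83.6 and 128 TPM in morphine-sired and 84.8, 98.3 and 118 TPM in saline-sired libraries, a difference of -0.18 (SE 0.15, 95% interval -0.51 to 0.14). Gal3st1, which makes sulfatide from that lipid, Fa2h, which hydroxylates its fatty acids, and Tf, the iron carrier transferrin, had differences of -0.03, -0.11 and -0.11. Outside the members, all 5 genes on a list for ceramide supply (Sptlc1, Sptlc2, Kdsr, Degs1 and Cers2) had differences between -0.10 and -0.00, and 0 passed at an unadjusted p under 0.05.

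The 6 transcription factors were centred on no difference, with a median of 0.02 and lower means in morphine-sired animals for 2. Sox10, needed through the whole lineage, had a lowest, median and highest level of 73.5, 82.6 and 125 TPM in morphine-sired and 72.9, 94.7 and 105 TPM in saline-sired libraries, a difference of -0.03 (SE 0.13). Olig2, which sets the lineage, had 47.2, 53.7 and 74.3 TPM in morphine-sired and 44.9, 58.4 and 63.5 TPM in saline-sired libraries, a difference of 0.01 (SE 0.12). The groups overlapped throughout for both. Olig1, its neighbour on chromosome 11, had a difference of 0.04. Myrf had 73.6, 80.1 and 138 TPM in morphine-sired and 66.9, 82.5 and 109 TPM in saline-sired libraries, a difference of 0.07 (SE 0.16) that became -0.06 under limma-voom. The smallest p of these factors belonged to Nkx2-2, which acts at the start of differentiation, and to Nkx6-2, a factor of mature cells. Nkx2-2 had 14.7, 18.8 and 20.6 TPM in morphine-sired and 15.9, 17.2 and 20.9 TPM in saline-sired libraries, a difference of 0.06 (SE 0.09, 95% interval -0.13 to 0.25). Nkx6-2 had 56.6, 64.0 and 114 TPM in morphine-sired and 65.0, 77.8 and 88.3 TPM in saline-sired libraries, a difference of -0.10 (SE 0.16, 95% interval -0.45 to 0.25).

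**Figure D2:**
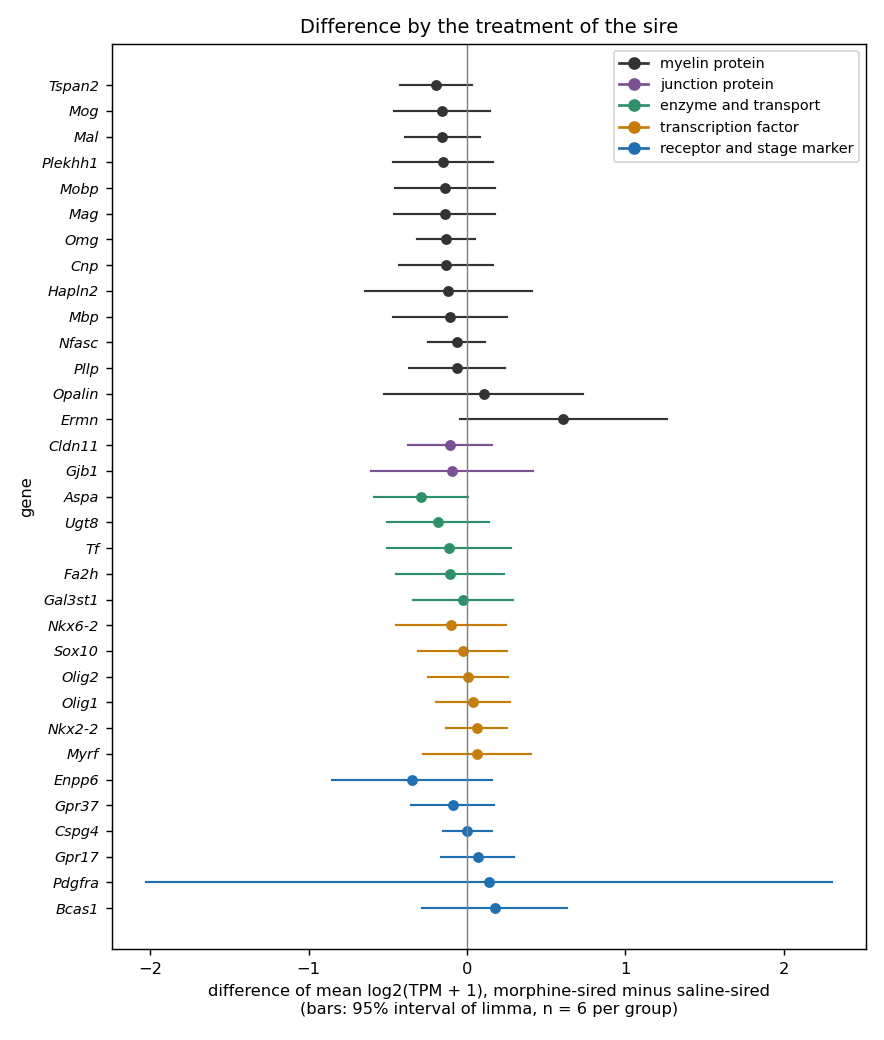
Points are the log2 differences, morphine-sired minus saline-sired, of the 33 members grouped by role, and bars are 95% intervals of limma (n = 6 per group). The intervals all include 0, and Pdgfra, Ermn and Opalin have the widest.

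Of the 6 receptors and stage markers, 2 had lower means in morphine-sired animals and the median difference was 0.04. Enpp6 (chr16:48315914-48437242, minus strand), a choline phosphodiesterase of newly forming oligodendrocytes, had 10.5, 30.4, 9.37, 11.7, 13.1 and 11.9 TPM in morphine-sired 1 to 6, and 16.1, 13.9, 16.3, 23.8, 18.2 and 16.4 TPM in saline-sired 1 to 6. The 5 morphine-sired libraries other than morphine-sired 2 were all below every saline-sired library, and morphine-sired 2 was above them all. The log2 difference was -0.35 (SE 0.23, 95% interval -0.85 to 0.16), and -0.57 without morphine-sired 2 (SE 0.12, limma adjusted p = 0.672). Bcas1, a marker of oligodendrocytes that have begun to myelinate, had 290, 630, 350, 313, 598 and 317 TPM in morphine-sired 1 to 6, and 490, 269, 365, 324, 347 and 339 TPM in saline-sired 1 to 6. Morphine-sired 2, morphine-sired 5 and saline-sired 1 were high, and the difference was 0.17 (SE 0.21, 95% interval -0.28 to 0.63). Gpr17, a receptor of cells leaving the precursor stage, had a lowest, median and highest level of 22.3, 26.5 and 31.0 TPM in morphine-sired and 21.9, 25.7 and 30.7 TPM in saline-sired libraries, a difference of 0.07 (SE 0.11). Gpr37, a receptor of mature cells, had a difference of -0.09.

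Cspg4 (chr8:61532465-61567510, plus strand), the NG2 proteoglycan of precursors and also of pericytes, was the steadiest member, with 10.3, 11.7 and 12.7 TPM in morphine-sired and 10.5, 11.3 and 12.8 TPM in saline-sired libraries. Its highest level was 1.24 times its lowest, and the difference was 0.00 (SE 0.07). Pdgfra (chr14:35527927-35581031, minus strand), the receptor that marks precursors, was split by the counting. Its annotated transcript had 22.2, 20.1, 0.995, 20.6, 0.673 and 1.13 TPM in morphine-sired 1 to 6, and 22.4, 15.8, 0.797, 0.795, 19.7 and 0.607 TPM in saline-sired 1 to 6. It was near 20 TPM in 6 libraries and near 1 TPM in the other 6, with 3 libraries of each group on either side.

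The locus of Pdgfra carries a second symbol, so its 3 assembled transcripts were left out by the rule. Summed with them, the locus had 23.7, 24.3, 23.1, 22.0, 19.6 and 15.9 TPM in morphine-sired 1 to 6, and 23.8, 20.6, 17.5, 21.0, 22.7 and 22.0 TPM in saline-sired 1 to 6. All 12 libraries then held a like level, with means of 21.4 ± 3.18 TPM in morphine-sired and 21.3 ± 2.15 TPM in saline-sired animals (SD, n = 6 each). The log2 difference was 0.14 (SE 1.00, 95% interval -2.03 to 2.30) by the rule and 0.00 (SE 0.10) with the assembled transcripts, an alternative chosen after the values were seen.

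**Figure D3:**
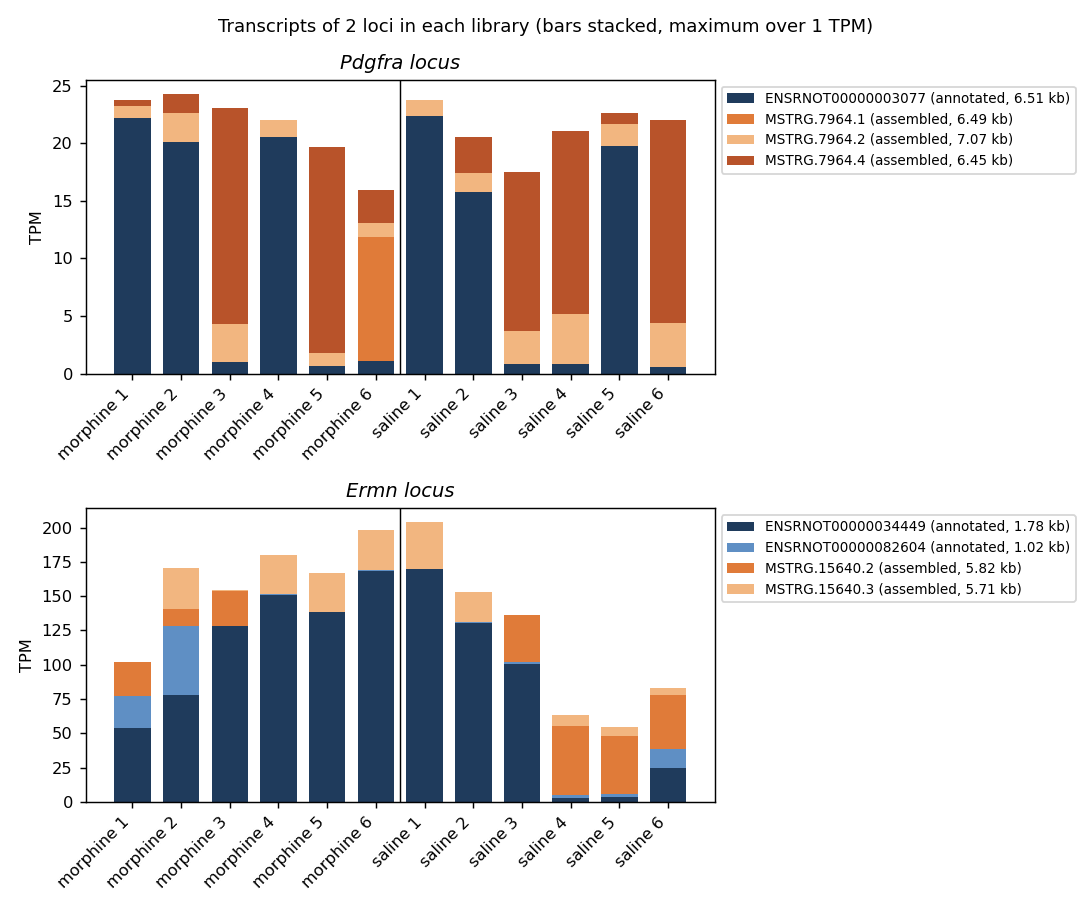
Bars stack the TPM of the transcripts that reach 1 TPM at the Pdgfra locus (top) and the Ermn locus (bottom) in each library, morphine-sired left, with annotated transcripts in blue and assembled ones in orange. At Pdgfra the sum stays between 15.9 and 24.3 TPM while the annotated part is near 1 TPM in 6 libraries, and at Ermn saline-sired 4 to 6 are low and mostly assembled.

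By stage, 21 of the 24 mature members had a lower mean log2(TPM + 1) in morphine-sired animals, with a median log2 difference of -0.11. The 3 factors of the whole lineage had a median of 0.01, the 4 differentiating members 0.06 and the 2 precursor members 0.07. The precursor value rests on Pdgfra by the rule (0.14, SE 1.00). Cspg4 had 0.00, and so did Pdgfra with the assembled transcripts of its locus (SE 0.10). The difference between stages was not tested, and the mature members vary together, so their shared direction is not that many separate observations. The highest level was a median of 1.98 times the lowest among mature members and 1.88 times among differentiating members, with 1.52 to 1.71 times for the lineage-wide factors and 1.24 times for Cspg4. For Pdgfra by the rule it was 36.9 times, and the sum of its locus ran from 15.9 to 24.3 TPM. Cspg4 alone thus does not stand for the precursor stage. Of 40 further mature oligodendrocyte genes outside the members, 39 were tested, 28 had lower means in morphine-sired animals, and 1 passed at an unadjusted p under 0.05. That gene was St18, at -0.23 (SE 0.10, limma adjusted p = 1.00). Lpar1, a lysophospholipid receptor, had a difference of -0.22 (SE 0.12). Of 15 further precursor genes 13 were tested, 7 had lower means, and Sox11, a factor of immature neural cells, passed at an unadjusted p under 0.05 with 0.26 (SE 0.09, limma adjusted p = 1.00). Of 6 genes of the node and paranode 5 were tested, with 0 at an unadjusted p under 0.05.

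**Figure D4:**
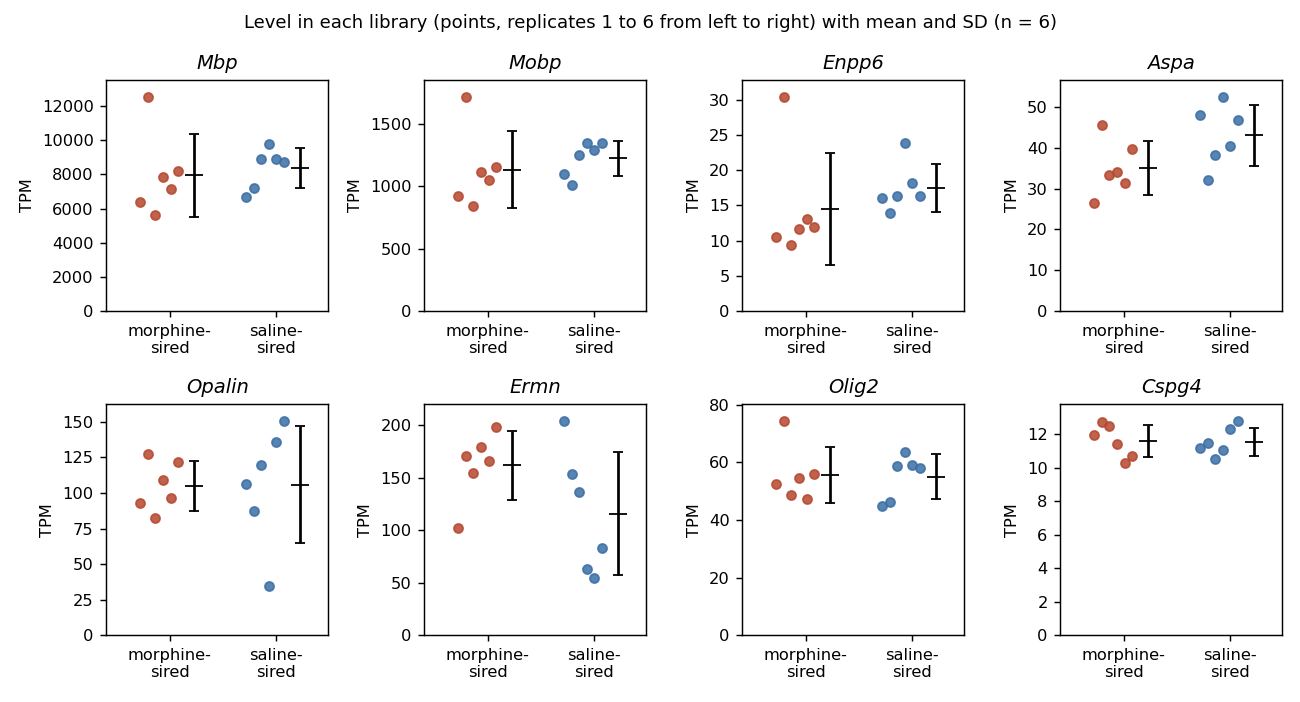
Points are TPM in each library for 8 members, morphine-sired left of saline-sired, with mean and SD (n = 6). Morphine-sired 2 is the top point for Mbp, Mobp, Enpp6 and Olig2, saline-sired 4 the bottom point for Opalin, and saline-sired 4 to 6 the bottom points for Ermn.

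Most members varied with Mbp from library to library. Over the 12 libraries, Pearson's r of log2(TPM + 1) with Mbp was above 0.8 for 20 of the 31 other members computed, with r from 0.807 (Nfasc) to 0.984 (Fa2h) and Spearman's rho from 0.762 to 0.958. Adjusted over the 31 relations, the permutation p of these 20 was at most 0.00226 for r and 0.00885 for rho (100000 permutations). The 20 were picked by their r, so a small p follows from that cut and adds no support. Without morphine-sired 2 and morphine-sired 3, the libraries farthest from the median of Mbp, r was 0.596 to 0.963. Within the morphine-sired libraries alone it was 0.887 to 0.999, and within the saline-sired libraries 0.439 to 0.993. All points share a library's TPM scale, so abundance relative to other cell types enters every relation.

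The 20 included all 3 lineage-wide factors, Sox10 (r = 0.929), Olig1 (0.877) and Olig2 (0.893), and of the differentiating members only Enpp6 (0.883). Myrf (r = 0.761) and Aspa (0.618) passed an adjusted p of 0.05 for r but not for rho (0.0891 and 0.0549). Relations that did not pass for r were those of Mal (0.600), Tspan2 (0.437), Gpr17 (0.457), Nkx2-2 (0.408), Bcas1 (0.309), Cspg4 (0.125), Opalin (0.0957), Omg (0.0414) and Ermn (-0.261). Opalin had r of 0.905 within the morphine-sired and -0.289 within the saline-sired libraries, where saline-sired 4 was low in Opalin and high in Mbp. Pdgfra was left out because its libraries fall into separate clusters.

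**Figure D5:**
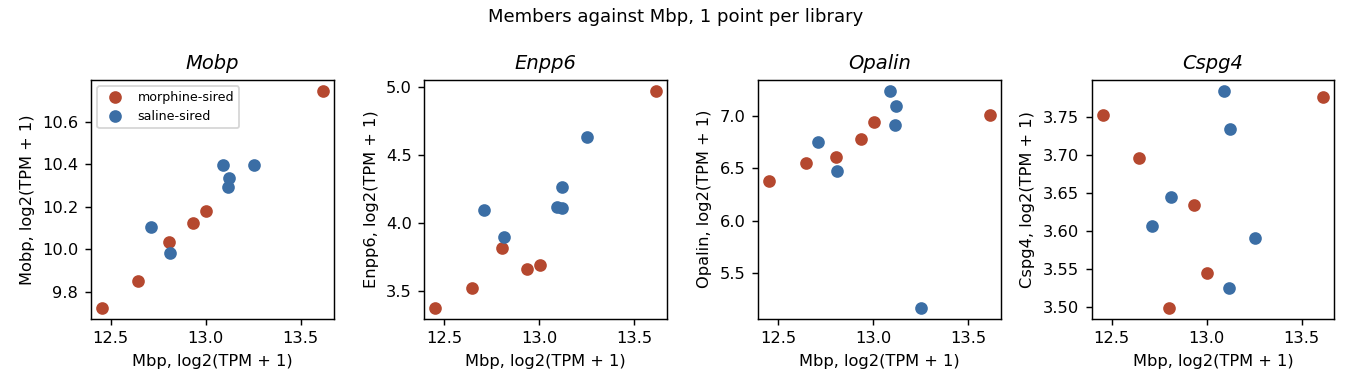
Each point is a library, with Mbp on the x axis and another member on the y axis, both as log2(TPM + 1), morphine-sired in red and saline-sired in blue. Mobp (r = 0.974) and Enpp6 (r = 0.883) follow Mbp, Cspg4 (r = 0.125) does not, and in Opalin (r = 0.0957) saline-sired 4 lies far below the other points.

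Because morphine-sired 2 was high for so many members, the comparison was also made without it. The library was thus singled out by the members' own levels, so lower morphine-sired means without it follow in part from that choice. The members also vary together, so those that passed are not that many separate observations. The shares of all genes beside these counts are therefore no measure of an excess, here or with a second library left out. The median log2 difference of the members was then -0.20 (mature members -0.24), 28 of 33 means were lower in morphine-sired animals, and 8 members passed at an unadjusted p under 0.05, all lower, where 6.01% of all genes passed and 2.45% passed as lower. These were Enpp6 (-0.57), Aspa (-0.37), Hapln2 (-0.36), Ugt8 (-0.30), Mobp (-0.27), Plekhh1 (-0.27), Mog (-0.26) and Cnp (-0.24). None passed after adjustment, with a smallest adjusted p of 0.672. Without saline-sired 2, the library with the next highest level of the choroid plexus marker Ttr, 5 members passed at an unadjusted p under 0.05. Of these 4 were lower, and 4.29% of all genes passed. Without morphine-sired 6, 2 members passed (3.1% of all genes), and without morphine-sired 1 (3.13%) or saline-sired 1 (3.21%) 1 member passed, while 0 passed without any other single library.

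With both of these libraries left out, 18 members passed at an unadjusted p under 0.05, all lower in morphine-sired animals and 17 of them mature, where 8.88% of all genes passed and 3.24% passed as lower. The median difference was -0.24 for all members and -0.29 for the mature ones, against 0.01 for all genes. Mbp had -0.29 (SE 0.12), Mog -0.34, Plekhh1 -0.36, Aspa -0.45 and Enpp6 -0.63 (SE 0.12). Again 0 were called, the smallest adjusted p being 0.362 for Enpp6. The number of members at an unadjusted p under 0.05 thus depended on these libraries. The number of mature members with a lower mean was 21 of 24 with all 12 libraries and 22 without these. Since morphine-sired 2 held the highest level of 18 mature members, leaving it out could only lower their morphine-sired means. Saline-sired 2 had the lowest member share of the saline-sired libraries (1.34%), and leaving it out raised the saline-sired mean share. Leaving out both thus moved the differences down from either side, so the counts and medians follow in part from that choice. The number of mature members with a lower mean was 20 without morphine-sired 1 and 19 without morphine-sired 3. Without morphine-sired 3 the median difference of all members was -0.02.

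The members' values were also set beside markers of the region's neurons. Without morphine-sired 1, saline-sired 1 and saline-sired 6, whose serotonergic scores (a mean of log2(TPM + 1) over marker genes) were 0.675, 0.505 and 0.611 and cholinergic scores 0.746, 0.621 and 0.546, the median member difference was -0.08. Then 1 member, Ermn, passed at an unadjusted p under 0.05, higher in morphine-sired animals at 0.90, against 3.0% of all genes. With both scores as terms in the model the median was -0.07 and 1 member passed, Omg at -0.24 (limma adjusted p = 1.00), against 3.45% of all genes.

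The members' transcripts were divided between annotated models and models assembled from these libraries. Of 33 members, 15 had no assembled transcript counted (Pdgfra among them, whose locus has some), 9 had over 50% of their TPM in assembled ones and 4 over 90%: Nfasc (99.87% or more in every library), Gpr17 (98.5%), Mag (96.4%) and Myrf (92.0%). In Gpr17 and Nfasc, 1 assembled transcript dominated in every library and varied little, with 21.5 to 30.7 TPM for that of Gpr17 and 70.6 to 114 TPM for the 10001-base transcript of Nfasc. In Mag, the assembled transcript MSTRG.1048.12 held 61.9% of the gene's TPM on average and ran from 12.7 to 448 TPM by library, while the gene as a whole ran from 380 to 707. In Myrf, the leading assembled transcript MSTRG.2783.1 had 54.8 ± 39.1 TPM in morphine-sired and 22.2 ± 35.2 TPM in saline-sired animals (SD, n = 6 each). In Mag and Myrf the division between transcripts moved far more between libraries than the sums.

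Of 131 member transcripts, 117 reached a mean of 0.5 TPM and 0 were called by limma, where 0.00198% of 50419 transcripts were called, and 4 passed at an unadjusted p under 0.05 (1 higher, 3 lower), against 3.77% of all (1.87% higher, 1.91% lower). The smallest p belonged to an annotated Aspa transcript of 1537 bases, with 5.48 ± 1.74 TPM in morphine-sired and 9.71 ± 3.05 TPM in saline-sired animals, a log2 difference of -0.72 (SE 0.22, limma adjusted p = 1.00). Another Aspa transcript, of 1757 bases, went the other way (1.54, SE 0.66), with 4.72, 6.09, 0, 5.34, 5.49 and 6.81 TPM in morphine-sired 1 to 6 and 0, 1.29, 0, 8.58, 0 and 0 TPM in saline-sired 1 to 6. Assembled transcripts of Hapln2 (-0.55, SE 0.21) and Plekhh1 (-1.88, SE 0.77) were the others, and that of Plekhh1 was high in saline-sired 3 and saline-sired 5 only, at 39.7 and 36.9 TPM. With annotated transcripts alone, 31 members were tested, 21 had lower means in morphine-sired animals, the median was -0.09 and 0 were called, but the sign turned for Mag, Gal3st1, Tf, Myrf and Olig2.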

How the data were processed

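PolyA RNA of the periaqueductal grey of 12 rats was purified with Trizol and spin columns for NEBNext Ultra libraries, per the labels' protocols. The submitters' processing notes list, with no order given, DESeq2 1.28.1, StringTie 2.1.2, SAMtools 1.11, HISAT2 2.2.0, Trimmomatic 0.39, FastQC 0.11.9 and Rnor_6.0, whereas StringTie 1.3.6 wrote the files per the file headers. Strand and read pairing are not given in the sources used here. The authors deposited coverage, FPKM and TPM for 76232 transcripts (41063 annotated, 35169 assembled) per library. Their table of log2 values served for gene names alone.

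TPM was summed per symbol and locus, and assembled transcripts went to a locus's symbol where it has only 1. Values in the 770 loci with several symbols are uncertain, because StringTie divides reads between overlapping transcripts. The 24540 genes averaging 0.5 TPM or more entered limma 3.58.1 in R 4.3.3 (intensity trend, two-sided, Benjamini-Hochberg over all of them) on log2(TPM + 1), which understates changes of low genes. The sire's treatment was the only term. For limma-voom, reads were estimated from coverage at 135 bases a read, a length inferred from covered bases. The gene fit was also run on simulated data in which each gene was drawn independently. The members vary together, so that run does not show how the fit performs on them as a set. Depth limits low genes most, and each interval gives the precision. Every listed member is named, with levels by library, or as lowest, median and highest of each group, for Mbp, Pdgfra, Sox10, Olig2, Myrf, Gpr17, Opalin and the 2 members with the smallest p in each role. Some marker and lineage genes outside the members are not reported here. Members and lists were chosen with earlier results of these data known. Other steps used matplotlib 3.10.9, scipy 1.17.1, pandas 2.3.3 and numpy 2.4.6 in Python 3.11.15.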

Additional observations from a re-analysis of the deposited data

Results flagged for a closer look

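In 9 members the level in morphine-sired 2 lay further from the other morphine-sired libraries than Dixon's critical value for 6 samples allows at 95% (gap to the nearest library over the group's range). The levels in morphine-sired 2 were 1716 TPM for Mobp, 100.1 for Plekhh1, 218.5 for Hapln2, 126.1 for Gjb1, 35.9 for Gal3st1, 1975 for Tf, 138.3 for Myrf, 74.3 for Olig2 and 30.4 for Enpp6. The other 5 morphine-sired libraries had 844 to 1158 TPM of Mobp, 54.5 to 64.0 of Plekhh1, 64.4 to 99.5 of Hapln2, 46.5 to 71.2 of Gjb1 and 16.8 to 23.6 of Gal3st1. They had 1045 to 1353 TPM of Tf, 73.6 to 90.3 of Myrf, 47.2 to 55.9 of Olig2 and 9.37 to 13.1 of Enpp6. Among 66 groups checked chance flags about 1 in 20, and all 9 flags fell on the same library, whose member levels vary together. Its summed choroid plexus, blood and neuronal markers were also the highest of the 12 libraries, with much of the choroid plexus and neuronal sums in Ttr and Nefl alone. The part of these markers in the member levels was not tested.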

How the results depend on the processing

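No member passed an adjusted p of 0.05 under any of 22 alternatives (smallest adjusted p 0.362). Of 725 member values, 681 kept their sign, and 44 changed sign in 13 members. Some could not change: dropping the filter on low values leaves each difference as it was. So does using annotated transcripts only for the 15 members with no assembled transcript counted. Over all genes, 0 calls became 1 without saline-sired 1, saline-sired 6 and morphine-sired 1 (chosen after seeing the data), and 0 to 1 when 1 library was left out (1 without saline-sired 4 or 6). Changed signs were 0.53 for Mag, 0.74 for Gal3st1, 0.12 for Tf, -1.31 for Myrf and -0.048 for Olig2 with annotated transcripts only, and -0.13 for Myrf, -0.065 for Olig1, -0.13 for Olig2, -0.036 for Bcas1 and -0.023 for Cspg4 without saline-sired 2 and morphine-sired 2. Limma-voom gave -0.057 for Myrf. Without saline-sired 1, saline-sired 6 and morphine-sired 1, Olig2 had -0.028 and Pdgfra -0.20. With serotonergic and cholinergic terms Hapln2 had 0.090 and Gal3st1 0.052. The cause was not tested. With 1 library left out, differences ran from -0.24 to 0.54 for Pdgfra, -0.022 to 0.033 for Cspg4, -0.13 to 0.025 for Sox10, -0.15 to 0.063 for Gal3st1, -0.022 to 0.098 for Olig1, -0.077 to 0.051 for Olig2, -0.065 to 0.14 for Myrf, -0.16 to 0.0019 for Pllp and -0.18 to 0.23 for Opalin. The median of all members ran from -0.20 (without morphine-sired 2) to -0.02 (without morphine-sired 3). No paired analysis was possible because the labels give no replicate numbers shared between the groups. Estimated reads were fewest for Nkx2-2 and Enpp6.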
